A study of Mus musculus with 54 samples.

Results

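Zfp_MB023 is a KRAB-zinc finger protein (KZFP), tested in a series on the young KZFP gene cluster of mouse Chr4, and its binding sites were taken as every peak of its own deposited ChIP-seq list. This gave 300 peaks of the 25012 peaks in the 42 lists of the series, and the list ranked 14th of 42 by size (lists held 21 to 6183 peaks, with a median of 125.5). The protein, tagged with HA at its C-terminal end, was over-expressed in mouse F9 embryonal carcinoma cells from a transposon vector with a puromycin resistance gene. Its chromatin was precipitated with anti-HA antibody and compared with the mixed input of batch 4, and peaks present in any empty vector control had already been removed by the authors. All groups used here are F9 cultures over-expressing 1 tagged KZFP each, at a level set by the vector and not by the native gene. The other 41 lists hold 24712 peaks (24675 on assembled chromosomes), and 19 of these lists come from the same batch. Each KZFP has 1 library, so there is no error between repeat experiments, and the intervals below are exact (Clopper-Pearson) 95% binomial intervals that cover counting error only.

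KZFPs bind DNA through an array of zinc fingers, each of which contacts a few neighbouring bases, and their KRAB domain recruits the corepressor KAP1 (TRIM28), which leads to H3K9 methylation at the bound site. Many of them bind endogenous retroviruses (ERVs), which consist of an internal region between a pair of long terminal repeats (LTRs) that were identical when the element inserted. Early transposons (ETn) and intracisternal A-particles (IAP) are among the mouse ERV families with copies that still insert, and both are known targets of KAP1-dependent silencing in embryonic cells. The study names ETnERV-int, an internal region of the ETn type, as the transposable element bound by Zfp_MB023, and IAPEz-int for both Zfp_MB028 and Zfp_MB026. No repeat annotation was used here, so the families below were built from the sequences under the peaks and take these names from that assignment: the IAP name rests on the Zfp_MB028 and Zfp_MB026 peaks in the same proviruses. The IAP family was picked as the family with most members overlapping a Zfp_MB028 peak.

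The sequences under the peaks fell into 1 large family, 1 smaller family, short tandem repeats and a larger set of sites found once in the genome. Aligning the 200 bp around each summit put 53 peaks (17.7%, interval 13.5% to 22.5%) into the largest family, called the ETn family here, and 14 peaks (4.67%, interval 2.57% to 7.71%) into a second one, called the IAP family. A further 30 peaks lay in tandem or simple repeats, 35 in other sequence with at least 10 copies in the genome, 14 in sequence with 2 to 9 copies and 154 (51.3%, interval 45.5% to 57.1%) in sequence found once. Only 4 more families were found, each of 2 peaks, and 225 windows joined no family. The windows that carry the rest of the text are printed here, each as 200 bases of GRCm39 around a summit with the strand given.

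The first pair shows the ETn family, with the 15 letters of the study's MEME motif in capitals, and lies at chr4:151231910-151232109 (plus strand) and chr1:164999689-164999888 (plus strand).
ETn family, Camta1 intron: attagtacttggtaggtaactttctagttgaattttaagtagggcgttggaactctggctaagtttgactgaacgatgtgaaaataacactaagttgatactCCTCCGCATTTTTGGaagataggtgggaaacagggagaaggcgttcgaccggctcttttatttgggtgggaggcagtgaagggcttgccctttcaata
ETn family, near Sft2d2: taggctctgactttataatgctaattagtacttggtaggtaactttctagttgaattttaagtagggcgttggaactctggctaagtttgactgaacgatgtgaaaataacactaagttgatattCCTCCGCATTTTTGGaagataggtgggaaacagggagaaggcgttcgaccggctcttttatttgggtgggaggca

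The IAP family is shown by its highest peak, at chr3:10521971-10522170 (plus strand), in the sense direction of the provirus. Capitals mark the longest run, of 20 bases, that all 14 windows of the family share letter for letter.
IAP family: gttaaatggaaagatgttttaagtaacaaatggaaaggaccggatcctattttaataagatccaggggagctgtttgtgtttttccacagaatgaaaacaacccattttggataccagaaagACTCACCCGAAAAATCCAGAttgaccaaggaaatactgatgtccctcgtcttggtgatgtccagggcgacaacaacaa

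The next set shows the tandem repeats with units of 11 or 12 bp among the 10 peaks of highest fold, at chr12:78894837-78895036 (minus strand), chr8:46503907-46504106 (minus strand) and chr6:141438533-141438732 (plus strand). Capitals mark every exact copy of the repeated unit.
Atp6v1d intron, unit of 12 bp: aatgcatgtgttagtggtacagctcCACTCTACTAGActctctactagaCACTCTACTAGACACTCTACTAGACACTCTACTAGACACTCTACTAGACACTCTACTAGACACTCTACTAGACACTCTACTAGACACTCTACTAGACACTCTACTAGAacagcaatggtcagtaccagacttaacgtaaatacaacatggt
Snx25 intron, unit of 11 bp: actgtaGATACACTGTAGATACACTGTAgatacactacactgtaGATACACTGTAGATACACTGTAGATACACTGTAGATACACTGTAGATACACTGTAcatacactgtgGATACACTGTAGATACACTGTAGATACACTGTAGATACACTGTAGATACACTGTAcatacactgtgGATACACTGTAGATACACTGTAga
Pde3a intron, unit of 11 bp: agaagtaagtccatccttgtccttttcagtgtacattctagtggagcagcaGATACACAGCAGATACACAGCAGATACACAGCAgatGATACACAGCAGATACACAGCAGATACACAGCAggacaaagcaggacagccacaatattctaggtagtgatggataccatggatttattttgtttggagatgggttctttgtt

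The last pair shows single-copy sites, at chr15:76460382-76460581 and chr6:49197449-49197648 (plus strand for each), the 2 of highest fold among the single-copy windows with at most 10 mismatches to the study's RCADE motif. Capitals mark that best match, which has 10 mismatches in each.
Single copy, beside the Adck5 start: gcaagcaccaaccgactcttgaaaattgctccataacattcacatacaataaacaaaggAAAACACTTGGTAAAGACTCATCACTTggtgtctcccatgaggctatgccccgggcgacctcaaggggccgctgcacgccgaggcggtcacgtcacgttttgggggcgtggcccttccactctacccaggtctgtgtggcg
Single copy, chromosome 6: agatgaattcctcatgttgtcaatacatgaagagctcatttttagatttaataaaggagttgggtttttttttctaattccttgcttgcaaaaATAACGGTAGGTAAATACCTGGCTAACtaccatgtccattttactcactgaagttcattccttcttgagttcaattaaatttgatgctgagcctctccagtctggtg

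Peak heights ranged widely, and tandem repeats and ETn copies took most of the highest ranks. The fold enrichment over input, a ratio computed by the authors' peak caller MACS2, ran between 10.1 and 361 with a median of 15.0, and the -log10 q ran between 14.04 and 1756 with a median of 32.2. Peaks were 157 to 3024 bp wide, with a median of 271 bp. Only 93 peaks reached 20-fold, 17 reached 50-fold and 3 reached 100-fold. Of the 10 highest peaks, 4 lay in tandem or simple repeats, 4 in the ETn family and 2 in single-copy sequence.

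The highest peak, chr12:78894707-78895186, had a fold of 361 and lay in an intron of Atp6v1d, which encodes a subunit of the vacuolar proton pump. It was followed by chr8:46503771-46504343 in an intron of Snx25, a sorting nexin gene, at 159-fold, and by chr4:151231818-151232289 in an intron of the transcription factor gene Camta1, at 139-fold. The step from the first to the second peak alone was larger than the whole range of all peaks below rank 2. The fourth, chr1:164999600-165000049 at 83.6-fold, was an ETn copy 1770 bp from Sft2d2.

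The next 2, at chr8:57875535-57875995 (76.2-fold, intron of the long noncoding RNA gene Gm63726) and chr8:89711822-89712316 (72.5-fold, with no gene within 10000 bp), were single-copy sites. A tandem repeat in an intron of Pde3a, a cyclic nucleotide phosphodiesterase gene, followed at chr6:141438422-141438871 with 68.9-fold. The rest of the 10 were an ETn copy at chr6:132498730-132499179 (63.4-fold, 3084 bp from Gm44070), a repeat of 4 bp units at chr19:21538178-21538816 (61.4-fold, in an intron of the long noncoding RNA gene ENSMUSG00000137053) and an ETn copy at chrX:117486245-117486627 (60.4-fold, with no gene within 10000 bp). Only 2 of the 10 highest peaks were thus of the single-copy kind.

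At the low end, the list was bounded by the authors' filter, which kept peaks of at least 10-fold. The 3 lowest peaks were chr12:87073048-87073238 in a UTR of Tmem63c, 23 bp from its start, at 10.1-fold, an ETn copy at chr4:4237556-4237806 at 10.1-fold, and chr12:27440744-27441021, 3078 bp from Gm59558, at 10.1-fold.

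**Figure D1:**
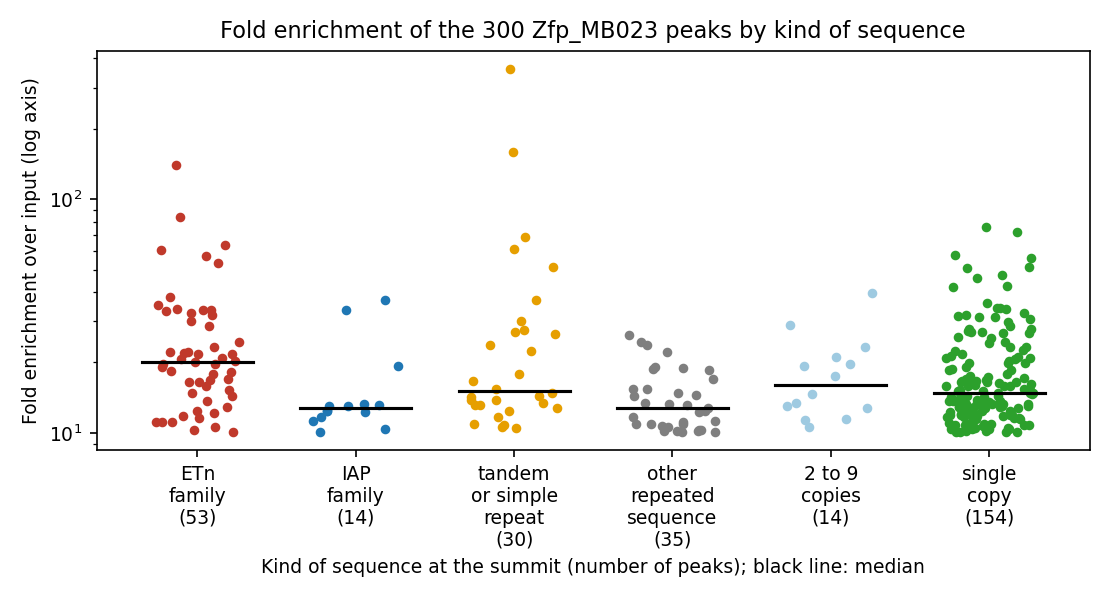
Each point is 1 of the 300 Zfp_MB023 peaks, placed by the kind of sequence at its summit (horizontal axis, number of peaks in brackets) and its fold enrichment over input (vertical axis, logarithmic), with the median as a black line. The ETn family has the highest median (20.1-fold) and the tandem or simple repeats hold the highest peak (361-fold), while the IAP family and other repeated sequence have medians of 12.7-fold.

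The kinds of sequence differed in level but overlapped throughout. Members of the ETn family had folds of 10.1 to 139 with a median of 20.1, and 27 of the 53 reached 20-fold. Tandem or simple repeats had folds of 10.5 to 361 with a median of 15.1, and single-copy sites 10.1 to 76.2 with a median of 14.9. The IAP family was low, with folds of 10.1 to 37.0 and a median of 12.7, as was other repeated sequence, with folds of 10.1 to 26.2 and a median of 12.7. The families were built from the same peaks, so these levels are a description.

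The ETn family was bound at nearly the same place in most proviruses. A direct repeat on each side, taken as the LTR pair, was found for 46 of the 53 members, with a median length of 319 bp and a median identity of 98.7% between its 2 copies. Read along the strand of the motif, the summit lay 249 to 405 bp inside the end of the 5′ LTR in 43 of the 46, with a median of 328 bp over all 46. The internal region was 1076 to 7031 bp long, with a median of 6806.5 bp, and the distance to the 3′ LTR varied between 640 and 6698 bp. The 3 exceptions, at 513, 615 and 3587 bp, had repeats of 448, 729 and 274 bp. An unusual repeat length did not set them apart, since members with repeats of 206, 234 and 277 bp had their summits at 358, 334 and 260 bp. In the 43 proviruses other than the 3 exceptions, the distance to the 3′ LTR therefore varied far more than that to the 5′ LTR.

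ETn members lay mostly outside genes, with 37 intergenic, 10 intronic, 3 exonic and 3 promoter summits, on 18 chromosomes. Each window had 288 to 540 copies in the genome, counting alignments of 100 bp or longer with a minimum identity of 80%. Near-identical copies, with 190 bp or more aligned and a minimum identity of 95%, numbered 28 to 112. The authors kept 1 of several equally good alignments of a read at random, so near-identical copies share reads and a single copy cannot always be scored on its own.

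The MEME motif that the study found on these peaks lay in the ETn family. Its letters, CCTCCGCATTTTTGG, occurred on either strand without mismatch in 47 of the 300 summit windows (15.7%, interval 11.7% to 20.3%), in 0 of the 300 matched windows lying 1000 bp upstream, and in 0 of 24675 summit windows of the other lists. Over all 42 lists, 0.188% of the windows held it. The two-sided exact McNemar test of summit against upstream windows gave an adjusted p of 2.84e-14 (Benjamini-Hochberg over 2 motifs), with 47 windows in favour of the summit and 0 against. The two-sided Fisher's exact test against the other lists gave an adjusted p of 2.57e-92. All 47 windows belonged to the ETn family, and outside it the best match had at least 4 mismatches. Since the study derived the motif from these same peaks, its presence is not independent evidence, and the test counts copies of 1 element: with 1 peak per sequence family the motif was in 1 window only (adjusted p = 1.0, exact McNemar test). The motif centre lay 82 bp before to 46 bp after the summit on the plus strand, with a median of -7 bp, and within 25 bp in 34 of the 47.

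Not every copy of the bound sequence had a peak. Of the copies of the family's reference window in the chromosomes, 53 (13.5%) held a Zfp_MB023 peak and 339 did not. This reference window is that of a Zfp_MB023 peak, the one that matched the largest number of other windows of the list. Shares by identity to it are therefore not independent of the peaks. Counting only copies aligned over at least 190 bp of the window, 26 of 323 (8.05%) held one. The splits that follow hold all copies, also those aligned over less of the window. The share was 29.0% (9 of 31) at 98% identity or more to the reference window, 46.8% (36 of 77) at 95% to 98%, 5.95% (5 of 84) at 90% to 95% and 1.5% (3 of 200) below. Split by the motif, 47 of 203 copies with the exact letters held a peak (23.2%), 4 of 81 with 1 mismatch (4.94%), 2 of 90 with 2 mismatches (2.22%) and 0 of 18 with more.

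Both splits can be crossed, although the reference window and the motif were each taken from these same peaks. Among copies at 95% identity or more, a peak was present at 39 of 86 with the exact motif (45.3%) and at 6 of 22 without it (27.3%), and among the more diverged copies at 8 of 117 with the motif (6.84%) and at 0 of 167 without it. The exact motif occurred 263 times in the chromosomes, 203 times in a copy of this family, and 47 occurrences (17.9%) lay in a peak.

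**Figure D2:**
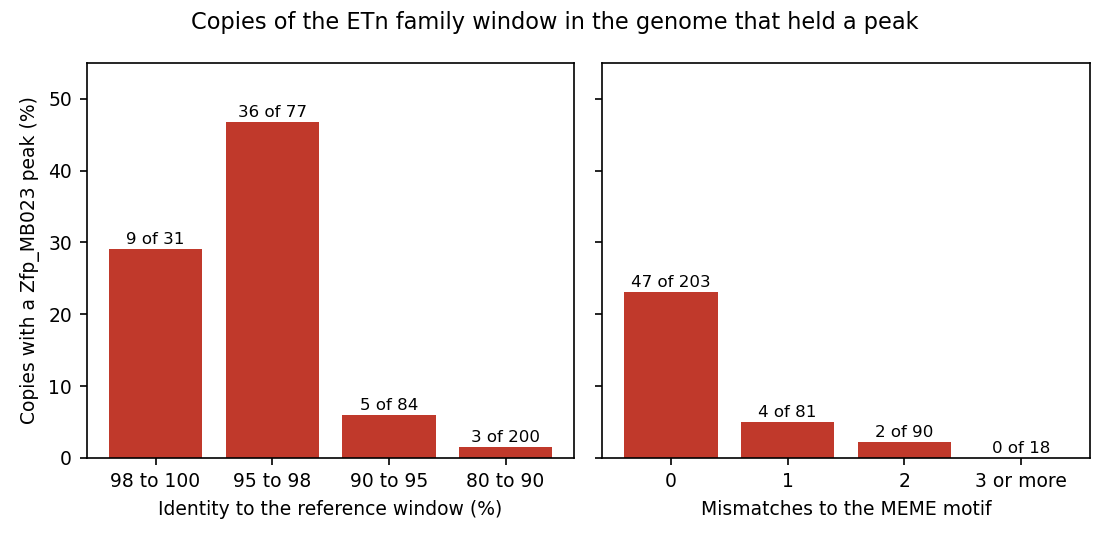
Bars give the percentage of copies of the ETn family window in the genome that held a Zfp_MB023 peak, by identity to the family's reference window (left) and by mismatches to the MEME motif (right), with the counts above the bars. Copies at 95% to 98% identity (36 of 77) and those with the exact motif (47 of 203) held most of the peaks. The reference window and the motif were taken from these same peaks.

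The RCADE motif of the study, with the 27 letters ATAACACTAGGTAGATACTCCGCCGGA and inferred from the peaks together with the zinc fingers, was present as a graded likeness. It occurred without mismatch in 0 of the 300 windows (interval 0% to 1.22%), and the best match had 4 mismatches. The ETn family held 50 windows with 4 to 6 mismatches, whereas 0 upstream windows and 0 windows of the other lists were this close. Within the family, the single window with 4 mismatches was the Camta1 intron copy, which also had the highest fold of the family (139).

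Outside the ETn family, 18 of 247 summit windows had at most 10 mismatches, against 1 of 247 upstream windows, and 0.324% of the summit windows of the other lists were this close. Of these 18, 14 were single-copy sites, and all 18 matches lay within 50 bp of the summit. With 11 mismatches allowed the counts were 41 and 5 windows, against 2.54% in the other lists, and with 12 they were 91 and 32, against 12.7%. The number of mismatches was chosen after the values were seen, so no test was made. The study inferred this motif from these same peaks, so closer matches at their summits are not independent evidence for it.

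**Figure D3:**
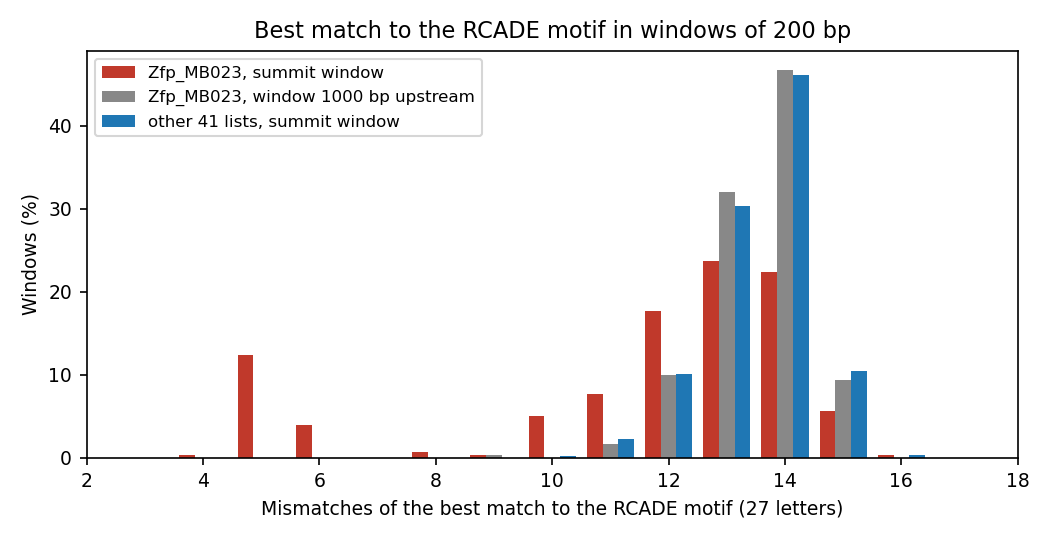
Bars give the percentage of 200 bp windows (vertical axis) by the mismatches of their best match to the RCADE motif (horizontal axis) for Zfp_MB023 summit windows (red), the windows 1000 bp upstream (grey) and the summit windows of the other 41 lists (blue). The red bars at 4 to 6 mismatches are 50 windows of the ETn family, and at 10 to 12 mismatches the red bars stand above both others. The motif was inferred from these same Zfp_MB023 peaks.

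A short word was more frequent at the summits than upstream in most kinds of sequence. The word GATAC, whose letters are part of the RCADE motif, was searched in the central 100 bp of each summit window, on both strands. It was present in all 14 windows of the IAP family, against 0 of their upstream windows, and in 14 of 30 tandem or simple repeats, against 6 upstream. In the 203 windows outside these groups and the ETn family, it was present in 77 (37.9%), against 23 (11.3%) of the windows of the same length 1000 bp upstream and 6.48% of the summit windows of the other lists. Of these, single-copy sites held 60 of 154 against 17 upstream, sites with 2 to 9 copies 9 of 14 against 1, and other repeated sequence 8 of 35 against 5, which is a small difference. The word AGTATC, searched in the same way, was in 37 of the 203 (18.2%), against 6 upstream (2.96%) and 1.2% in the other lists. Its reverse complement, GATACT, contains GATAC, so these 37 windows are part of the 77 and not further ones. A further word, GATAAC, was in 32 (15.8%), against 2 upstream (0.985%) and 4.18% in the other lists. In the ETn family the word GATAC was in only 1 central window, again that of the Camta1 intron, against 3 upstream windows. These words were picked after the windows had been compared, and a match is a description and not a binding site. The windows of the IAP family, like those of the ETn family, are copies of 1 sequence and do not count as separate observations.

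Tandem repeats were frequent at the summits. A window was counted when at least 85% of 60 consecutive bases equalled the base 1 unit further on, for units up to 60 bp. This held for 27 of the 300 windows (9.0%, interval 6.01% to 12.8%), against 6 upstream windows (2.0%) and 1.71% of the other lists' windows, and 1.8% of the windows of all 42 lists. The list ranked sixth of the 42 by this share, below Zfp_MB021 with the highest share (38.2%). Units were mostly of 4 bp (9 windows), 6 bp (5) and 12 bp (4), with 2 windows each at 2, 3 and 11 bp. Units of 11 bp were in 0 windows of the other lists and units of 12 bp in 3 of 24675. The Atp6v1d window held 10 exact copies of its unit, the Snx25 window 14 and the Pde3a window 6, and the last pair of units begin with the word GATAC. The median fold was 14.4 for windows with a tandem repeat and 15.2 for the others, so the highest peaks do not stand for the group.

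The IAP family lay between direct repeats of LTR length, mostly at nearly the same distance from the 3′ LTR. As in the ETn family, a shared position of the summits in the element is set by the grouping. All 14 members were bracketed by direct repeats, of 319 to 513 bp, with a median identity of 98.03% between the 2 copies. The aligned members were given 1 common sense strand, chosen as the one whose longest stretch free of stop codons in the 1000 bp around the summit had the higher median over the members (538.5 bp, against 313.5 bp on the other strand). For 1 of the 14 members the stretch on this strand was not the longer. In this direction the summit lay 1165 to 1206 bp before the 3′ LTR in 11 of the 14, and the others lay at 778, 783 and 2027 bp. The distance to the 5′ LTR varied between 1698 and 5546 bp. The internal region was 2893 to 7572 bp long, with a median of 4061.5 bp. Each window had 2434 to 3196 copies in the genome, and only 14 of the 2921 copies of the family's reference window (0.479%) held a Zfp_MB023 peak. These were 6 of 207 copies at 98% identity or more to that window, 3 of 1489 at 95% to 98%, 5 of 99 at 90% to 95% and 0 of 1126 below. Here too the reference window is that of a Zfp_MB023 peak.

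The highest IAP members were chr3:10521783-10522276, 6752 bp from the noncoding gene Gm64303, at 37.0-fold, and chr3:35927060-35927379, 8224 bp from the pseudogene Gm7741, at 33.4-fold. All the rest were under 20-fold. Most were intergenic (11 of 14), and 3 were in introns.

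Overlap with the other lists was small. At least 1 bp was shared with some other list by 37 of the 300 peaks (12.3%, interval 8.83% to 16.6%), against 25.1% of the peaks of all 42 lists, and 263 peaks overlapped none. Only 4 lists had a lower share, and the median list shared 60.8% of its peaks. The overlapping peaks were 12 of the 14 in the IAP family, 11 of the 154 single-copy sites, 7 of the 35 in other repeated sequence, 3 of the 30 tandem or simple repeats, 3 of the 53 in the ETn family and 1 of the 14 with 2 to 9 copies. Of the 10 highest peaks only 1 was shared, and the median fold was 12.4 for shared and 15.4 for unshared peaks.

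Zfp_MB028 was the list with most overlap, with 13 Zfp_MB023 peaks (4.33%) against 13 of its own 1423 peaks on chromosomes (0.914%). Of these, 11 were IAP copies, of the family that was picked by this same overlap. In these copies the summits did not coincide: the Zfp_MB028 summit lay upstream of that of Zfp_MB023, at offsets of -428 to -348 bp in the sense direction, with a median of -390 bp. The other 2 were single-copy sites on chromosome 11, chr11:88859227-88859472 (16.1-fold, 1581 bp from Elobl) and a peak of 11.5-fold within 4932435O22Rik. By highest fold, the shared IAP copies were led by the peaks at chr3:10521783-10522276, chr3:35927060-35927379, chr19:16060080-16060331 (19.2-fold, in an intron of Gm32026) and chr4:3461968-3462313 (13.3-fold, 5884 bp from Gm11785).

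Zfp_MB026 shared 3 peaks (1.0%) with Zfp_MB023, which are 0.0731% of its 4105 peaks on chromosomes. All 3 were IAP copies, at chr3:10521783-10522276 (37.0-fold), chr19:16060080-16060331 (19.2-fold) and chr6:133379207-133379551 (13.2-fold). Here the Zfp_MB026 summit lay 58 to 96 bp upstream of the Zfp_MB023 summit. On 4 other proviruses of the family Zfp_MB026 had its summit at an offset of -4102 to -4077 bp instead. Gm21411, also assigned to IAPEz-int by the study, shared 2 IAP copies, with its summits 353 and 398 bp upstream.

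The same positions can be looked at in all copies. A Zfp_MB028 summit lay at an offset of -500 to -300 bp from 11 of the 14 IAP copies with a Zfp_MB023 peak (78.6%, interval 49.2% to 95.3%) and from 987 of the 2907 copies without one (34.0%, interval 32.2% to 35.7%). A Zfp_MB026 summit lay within 200 bp upstream of 3 of 14 copies with a Zfp_MB023 peak (21.4%, interval 4.66% to 50.8%) and of 21 of 2907 without (0.722%, interval 0.448% to 1.1%). The copies with and without a Zfp_MB023 peak also differed in identity to the reference window, and the shares were not split by it. Because the IAP family was picked by its overlap with Zfp_MB028 peaks, its high Zfp_MB028 share is no independent result. The distances were chosen after the offsets had been seen, the copies share reads, and no test was made.

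**Figure D4:**
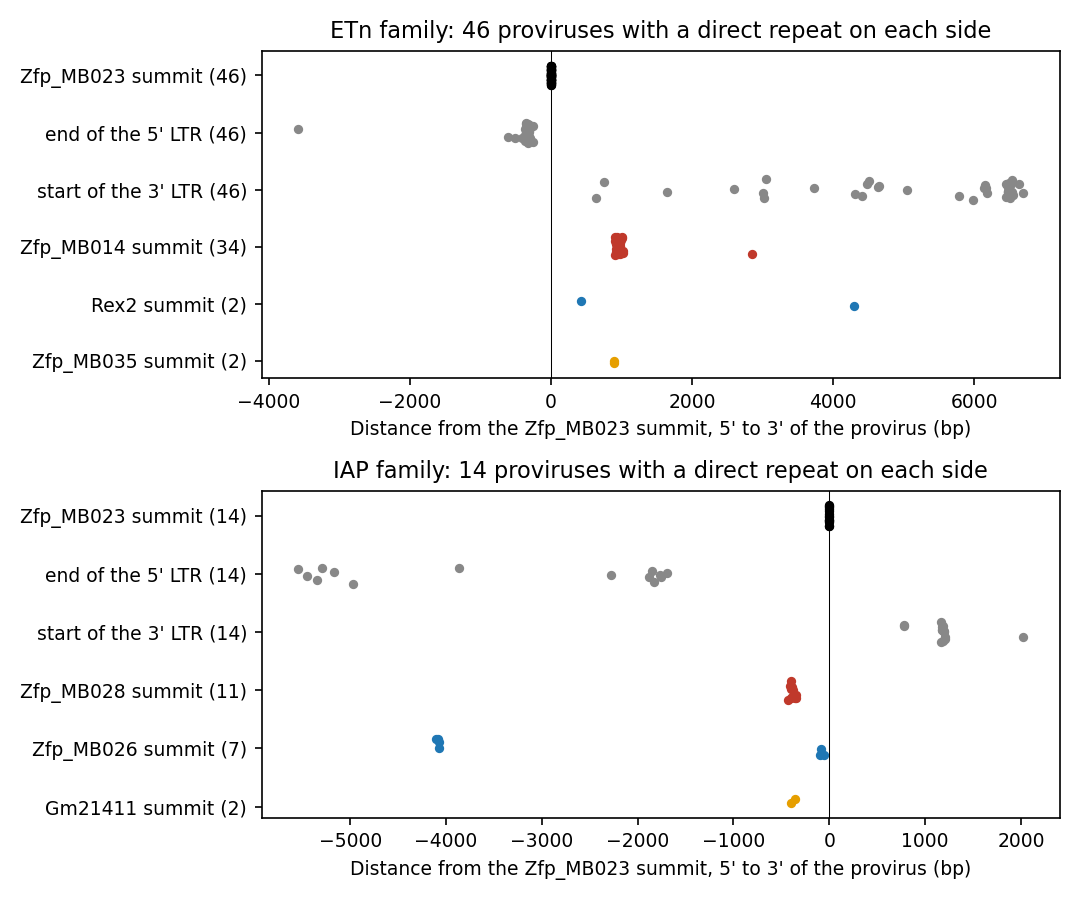
Each point is 1 feature of a provirus bound by Zfp_MB023, placed by its distance in bp from the Zfp_MB023 summit along the sense direction (horizontal axis), for 46 ETn proviruses (top) and 14 IAP proviruses (bottom), with the number of points in brackets. The end of the 5′ LTR stays near 328 bp upstream in the ETn family and the start of the 3′ LTR near 1183.5 bp in the IAP family, and the summits of Zfp_MB014 and Zfp_MB028 form tight groups. Members of a family were joined by the sequence at their summits, so a shared Zfp_MB023 position is set by the grouping.

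On the ETn proviruses other KZFPs had peaks of their own, nearly all at other positions. Zfp_MB014 had a summit on 34 of the 46 proviruses, 902 to 2849 bp downstream of the Zfp_MB023 summit with a median of 949.5 bp, and 29 of the 34 were between 902 and 1000 bp. None of these overlapped the Zfp_MB023 peak, so the overlap count of Zfp_MB014, 1 peak outside the family, does not show them. Over all copies, a Zfp_MB014 summit lay 800 to 1100 bp downstream of 34 of 53 copies with a Zfp_MB023 peak (64.2%, interval 49.8% to 76.9%) and of 107 of 339 without one (31.6%, interval 26.6% to 36.8%). These sets of copies are not alike: Zfp_MB023 peaks were at 36 of 77 copies of 95% to 98% identity to the reference window but at 3 of 200 below 90%. The Zfp_MB014 shares were not split by identity, the copies share reads, and no test was made. Zfp_MB035 had summits on 2 of the proviruses, 896 and 899 bp downstream. Only 7 of the 24675 summit windows of the other lists fell in the ETn family window itself, 5 of them from Zfp_MB001.

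Rex2, which the study assigns to MMETn-int and ETnERV-int, shared 4 peaks (1.33%) with Zfp_MB023, or 3.13% of its 128 peaks. Only 1 of them was an ETn copy, chr15:8851234-8851540 (32.5-fold), with the Rex2 summit 424 bp downstream. Rex2 had 1 more summit on these proviruses, 4292 bp downstream. The other 3 shared sites were also shared with at least 3 further lists. They were chr12:54757063-54757624 (12.3-fold, in other repeated sequence), chr19:5892424-5895447 (12.03-fold, in the nuclear noncoding RNA gene Neat1, the widest peak of the list) and chr2:119181777-119183428 (10.2-fold, 346 bp from the start and in coding sequence of Chac1, the gene of a glutathione-degrading enzyme).

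Further lists overlapped by 5 peaks or fewer. Zfp982, Zfp_MB021 and Zfp_MB022 had 5 each (1.67% of the Zfp_MB023 list, against 0.105%, 6.58% and 1.37% of their own), and Zfp_MB011, Zfp_MB025 and Zfp_MB035 had 4 each. The Zfp982 sites were single-copy sequence in 4 of 5 cases, among them the promoter sites of Adck5, Golm2 and Det1. The Zfp_MB021 and Zfp_MB022 sites were tandem, repeated or few-copy sequence, with summits 0 to 56 bp apart, among them a repeat of 4 bp units in an intron of Pcdh15 (37.1-fold) and 1 of 3 bp units in an intron of Sorcs3 (12.4-fold). The largest number of lists at 1 site was 7, at Neat1, and 9 peaks were shared with at least 3 lists. These 9 were singled out after their values were seen. A total of 20 lists had no overlap.

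**Figure D5:**
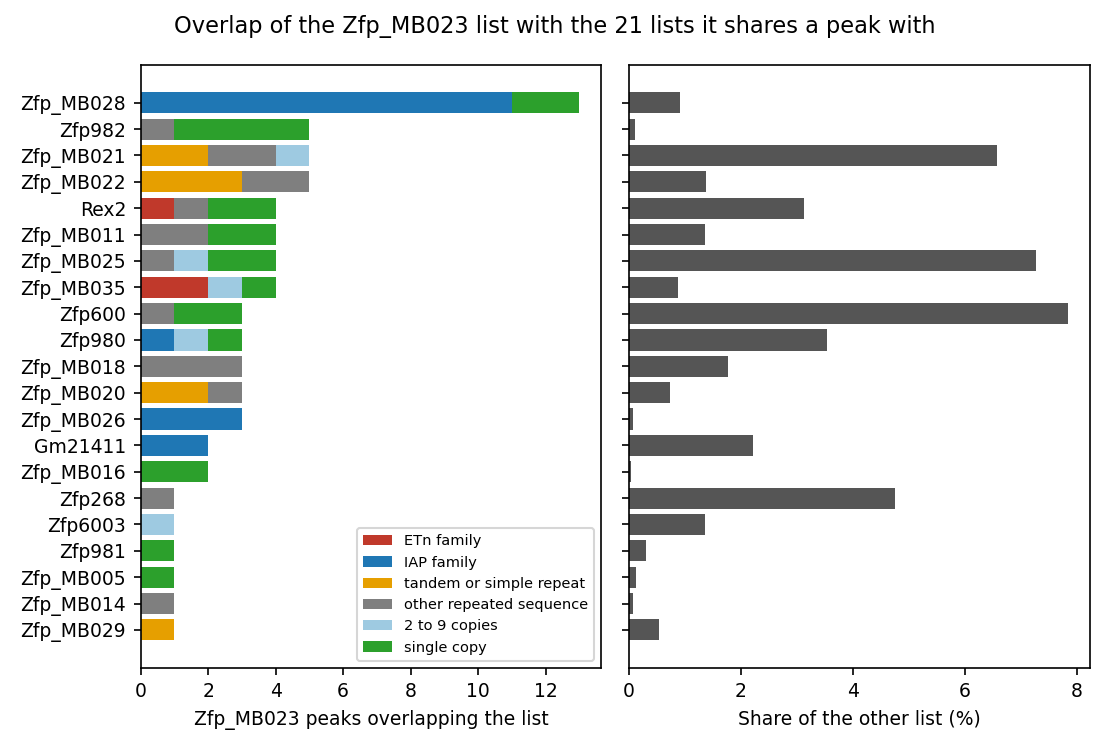
Bars give the number of Zfp_MB023 peaks that overlap each of the 21 other lists sharing at least 1 peak (left, coloured by kind of sequence) and the share of the other list's peaks that this makes in percent (right). Zfp_MB028 leads with 13 peaks, 11 of them in the IAP family, and the overlap stays below 8% of every other list.

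In the genome, the summits were spread over all chromosomes, and their share in introns was above that of the pooled summits of the other lists and of most single lists. Lists of very unequal size enter that pool, so the number of lists with a lower share is given as well. Introns held 134 of 300 summits (44.7%, interval 39.0% to 50.5%), against 32.0% of 24675 summits of the other lists (adjusted p = 2.02e-05, two-sided Fisher's exact test, Benjamini-Hochberg over 4 classes), and 35 of the 41 other lists had a lower share. Promoters, within 1000 bp of a transcription start, held 49 (16.3%, interval 12.3% to 21.01%), against 27.1% of the pooled summits of the other lists (adjusted p = 2.84e-05, the same exact test) and 27% in all 42 lists. However, 20 of the 41 other lists had a lower promoter share, so the list lay near the middle of the lists for promoters. The difference at promoters was not called against the batch 4 lists alone (16.3% against 19.4%, adjusted p = 0.279, Fisher's exact test), whereas that at introns was (44.7% against 35.4%, adjusted p = 0.00487). Exons held 13 summits (4.33%, against 4.55%, adjusted p = 1.0) and intergenic sequence 104 (34.7%, against 36.4%, adjusted p = 0.783, the same exact test). Of the bases of the genome without gaps, 45.5% were intronic, 41.7% intergenic, 8.38% promoter and 4.41% exonic by the same rule. Against these bases, the intron share of the list (44.7%) was about the same and its promoter share (16.3%) was higher. The test compares lists of peaks, not conditions, and counts each peak as separate. However, the 53 ETn peaks are copies of 1 sequence and the 14 IAP peaks of another. With 1 library per KZFP, the p-values cover counting error only.

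By chromosome, the density was 1.13 peaks per 10 megabases overall. It was highest on chromosome 18 with 1.94 (17 peaks) and chromosome 13 with 1.62 (19 peaks), and lowest on chromosome Y with 0.226 (2 peaks), chromosome 16 with 0.527 (5 peaks) and chromosome X with 0.609 (10 peaks). Inside genes lay 187 summits, 128 of them in protein-coding genes, and 51 were more than 10000 bp from any gene.

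Promoter sites were mainly single-copy and of moderate height. Of the 49, 40 were single-copy sequence, the median fold was 15.2, the highest 57.4, and 8 reached 20-fold. The highest was chr15:76460229-76460618, whose summit lay 43 bp from the start of Adck5, a gene for an atypical kinase of the ADCK family. Next came Tmem41a (46.1-fold, 447 bp), an ETn copy 872 bp from a start of the noncoding gene Gm62216 (32.5-fold), Bpnt1 (31.2-fold, 42 bp), which encodes a nucleotide phosphatase, and a site near the starts of Gm14019 and Golm2 (29.9-fold). The noncoding gene Gm56925, beside the forebrain regulator Fezf1, had a summit 46 bp from its start (25.4-fold).

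Most of the other named promoter sites were of protein-coding genes. Nr5a2, a nuclear receptor that sustains Oct4 expression in the early embryo, had a summit 669 bp from a start (20.4-fold), and Six3, a regulator of eye and forebrain formation, had 1 within 1000 bp of its start (19.9-fold), inside an exon of its antisense gene Six3os1. The list further held Det1 (18.7-fold), the cell cycle ubiquitin ligase subunit Cdc16 (18.6-fold), Mpp7 (17.4-fold), D3Ertd751e (17.0-fold), Mtss1 (16.9-fold), Smim11 (16.6-fold), the fatty acid transporter Slc27a2 (16.5-fold), the aldehyde reductase Akr1a1 (15.9-fold), Snapc3 (15.8-fold), the neuronal and embryonic glucose transporter Slc2a3 (15.2-fold, 12 bp from a start) and the protocadherin Fat1 (15.2-fold). The remaining starts among the 25 highest promoter peaks were of other genes: Gm74463 and Gm73821 (20.6-fold), Gm55782 beside Six3, the ETn sites at Gm59365 (19.8-fold) and Gm32247 (18.2-fold), Gm51425 (19.3-fold), 1700011D18Rik beside Det1, E230029C05Rik (18.6-fold) and Gm25434 (17.4-fold). In all, 65 genes had a start within 1000 bp of a summit.

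Genes with a Zfp or Zscan symbol, or Rex2, held 4 summits. In the KZFP cluster of Chr4, between Tnfrsf8 and Miip (chr4:144993707-147953273), 2 of the 51 peaks that all lists placed there were of Zfp_MB023, which holds 300 of the 25012 peaks of the series. The 2 sites were chr4:147642470-147642803 in an intron of Zfp985 (26.2-fold) and chr4:147061223-147061394 in an intron shared by the overlapping genes Rex2 and Zfp989 (10.6-fold). These 2 windows formed 1 of the small families, with 39 and 38 copies in the genome. The study reports gaps of GRCm39 in this cluster, and that reads from the missing sequence can pile up on similar sequence in the reference. The place of these 2 peaks and their copy numbers are therefore uncertain. The other genes of this kind were Zfp532 on chromosome 18, in an exon (34.3-fold), and Zfp423 on chromosome 8, in an intron (24.2-fold). The remaining small families were a pair of neighbouring sites on chromosome 15, 1 of them in an intron of Ly6c2 (14.8-fold) and 1 at 1440 bp from Gm62539 (23.9-fold), a pair at introns of the noncoding genes Gm71333 (13.1-fold) and Gm69297 (10.2-fold), and a pair with 379 and 378 copies, in an intron of Lair1 (15.4-fold) and 2533 bp from Gm43078 (10.7-fold).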

How the data were processed

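Per the study's methods and the labels, F9 cells over-expressing each HA-tagged KZFP were fixed in 1% formaldehyde and precipitated with an anti-HA antibody, 1 library per KZFP. The authors aligned reads to GRCm39 with BWA (aln and sampe), kept 1 of several equally good alignments at random, filtered with SAMtools 1.19 and called peaks with MACS2 2.2.7.1 against the mixed input of the batch. They removed peaks overlapping any empty vector control peak and kept only peaks that passed a q-value limit and a fold over input of at least 10, lowered for lists left with few peaks. The deposited columns used are the fold enrichment over input (a ratio), the -log10 p and -log10 q values, and the score, which equals the integer part of 10 times the -log10 q in all 300 peaks. The study gives 42550510 reads for Zfp_MB023, 19634387 to 76878920 for the 20 KZFP libraries of batch 4 and 20902201 for the input, so a low peak may be missed in a shallower library.

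From the files, windows of 200 bp around each summit were aligned to each other and to the genome with blastn 2.17.0 (E-value 1e-05) and joined into families at 100 bp and 80% identity. Direct repeats of at least 200 bp and 85% identity were sought within 9000 bp on each side. Summits were placed as promoter, exon, intron or intergenic, in this order, with GENCODE release M39. Tests used scipy 1.17.1 at an adjusted p of 0.05. The searches for families, motif matches, tandem repeats and overlaps recovered planted values in simulated data, and the tests themselves were not checked in this way. Named peaks were the 10 highest and 3 lowest by fold, the 2 highest of each of the 4 largest families, the 5 highest shared with Zfp_MB028, Zfp_MB026 or Rex2, and those in the Chr4 cluster. Named genes were those holding or nearest to a named peak within 10000 bp, those with a start near the 25 highest promoter peaks, and genes with a Zfp or Zscan symbol, or Rex2, holding a summit. Members and lists were chosen with earlier results of these data known. Peaks shared with at least 3 lists, tandem repeats, short words, the mismatch limit of the RCADE motif and the offset ranges were chosen after values were seen. The 37 peaks on scaffolds (0 of Zfp_MB023) were left out. The planned count of summits in repeat-masked sequence was not run, because the reference sequence used is not soft-masked.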

Additional observations from a re-analysis of the deposited data

How the results depend on the processing

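Of 43 values recomputed under alternative settings, 31 kept their direction and their side of the threshold or moved by less than their interval, but 5 of these 31 are the exact RCADE match, which was at 0 in every setting. Against the batch 4 lists alone, the promoter difference was -3.07 percentage points (adjusted p = 0.279, Fisher's exact test). Neither exon nor intergenic shares were called at any setting, but the exon difference was 0.0456 points at the shorter alternative promoter distance (main value -0.218), and the intergenic difference was 5.29 points among peaks of at least 20-fold (main value -1.69). At 20-fold the largest family held 29.0% of peaks (27 of 93). Overlap with any list was 4.33% when the shared stretch had to cover the larger part of both peaks, 5.33% for summits within 100 bp and 4.30% at 20-fold. For Zfp_MB028 these were 0%, 0% and 2.15%, and for Rex2 the share at 20-fold was 0%. With the larger part of both peaks shared, the overlap was 1 peak for Zfp_MB026 (0.333%, main value 3 peaks) and 2 for Rex2 (0.667%, main value 4 peaks). With 1 peak per sequence family the MEME motif share was 0.433% (exact McNemar test, adjusted p = 1.0), by construction, since the copies of the ETn family then count once. The cause of the other shifts was not tested. No paired analysis was possible because each KZFP has 1 library, and for the same reason no replicate could be left out. The repeat-masked count and its alternatives were not run.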
